A study of Mus musculus with 24 samples.

Results

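The genes described here are 9 genes of the extracellular matrix of the brain and its receptors, namely the tenascins *Tnxb*, *Tnr* and *Tnc*, the collagen receptors *Ddr1* and *Ddr2*, the testicans *Spock1*, *Spock2* and *Spock3*, and *Sparcl1*. They were listed by name, and all 9 are among the 13998 genes of the deposited table. *Tnxb* and *Ddr1* lie in the mapped interval of Chr 17 and were chosen by their difference between the genotypes in these libraries, so that difference is given as values with no test. The other 7 are relatives of these genes on other chromosomes. Expression was measured by SAGE-Seq, in which a short 3′ tag of each transcript is read, in the hypothalamus of 24 male F2 mice with 1 library per mouse. All mice came from an intercross of the B6.CAST-17.1 subcongenic strain with C57BL/6J. The mice genotyped as *cast/cast* (n = 12) carried CAST/EiJ alleles on both copies of the Chr 17 subcongenic segment, and those genotyped as *b6/b6* (n = 12) carried C57BL/6J alleles there. Outside the segment both genotypes carried C57BL/6J alleles, so any effect of genotype belongs to the whole segment and not to a single gene in it. All were adults and had returned to a choice of carbohydrate/protein (C/P) and fat/protein diets before a short fast and dissection. The mice had been picked for high C/P intake among *cast/cast* and for low C/P intake among *b6/b6* animals, so genotype and intake cannot be told apart between the groups.

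The matrix between brain cells is poor in fibrillar collagen and rich in hyaluronan, proteoglycans and tenascins. Tenascins are large glycoproteins of epidermal growth factor-like repeats, fibronectin type III domains and a fibrinogen-like globe. *Tnr* encodes the tenascin of myelinating glia and perineuronal nets, *Tnc* that of astroglia in development and after injury, and *Tnxb* that of connective tissue, where it associates with collagen fibrils. *Ddr1* and *Ddr2* encode the discoidin domain receptors, tyrosine kinases that are switched on by collagen. In brain, *Ddr1* is known from oligodendrocytes, and *Ddr2* is known from connective tissue cells. The testicans are proteoglycans of the SPARC family made mainly in brain, and *Sparcl1* (hevin) is a secreted SPARC relative of astrocytes known for a role in synapse formation.

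The tags that would stand for the genes on which the results turn were predicted from the annotated transcripts as the 27 bases that start at the CATG site nearest the 3′ end. CATG, in capitals, is the site of the enzyme that cuts the cDNA in SAGE. Each sequence was read 5′ to 3′ on the strand of the transcript from GENCODE M21 (GRCm38), and none of them occurred as a predicted tag of another gene.
Tnxb: CATGggactgcaggcgactctatgagc
Ddr1: CATGctgcagctagaacttcgcaaagc
Spock2: CATGttttagtaagaaagcagaaggcg
Spock3, isoforms that end early: CATGttaattaattgtgtagacatttt
Spock3, longer isoform: CATGaagagtttttaatttattcctta
The *Tnxb* tag starts in exon 31 of 33, in coding sequence, and runs across a splice junction (chr17:34718967-34719074, plus strand). The *Ddr1* tag lies in the 3′ untranslated region (UTR) of the last exon, at chr17:35681820-35681846 on the minus strand, and is the same in all 4 annotated coding isoforms that were matched to RefSeq. The *Spock3* tags lie in the 3′ UTR at chr8:63356542-63356568 and chr8:63356897-63356923, so the isoforms of *Spock3* have different tags, while the deposited table gives a single value for the gene. The *Spock2* tag (chr10:60133898-60133924) runs past the end of the transcript as the table places it. The predicted *Tnr* tag (chr1:159931590-159931616), not printed here, lies wholly past that end of its own gene. Which tags the authors counted for each gene is not given in the sources used here. The reference transcripts are mainly those of C57BL/6J, and how tags with CAST alleles aligned was not tested.

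The libraries held between 7754202 and 13082873 tag hits per mouse, with medians of 10032338.5 in *b6/b6* mice against 10383038 in *cast/cast* mice. Values are normalized counts, that is, tag hits scaled by a size factor per library, and 3 tag hits were taken as the smallest detectable signal. All 11 hypothalamic marker genes that were looked for were in the table, among them *Agrp*, *Pomc* and *Hcrt*. *Gh* and *Cga* were the 2 of 6 pituitary markers in it, with a summed normalized count between 0 and 469.84. Of 93 tested marker genes of 12 cell types or regions, *Tcf7l2* of the thalamic list alone was called (205.7 ± 138.4 in *b6/b6* mice, 105.0 ± 57.9 in *cast/cast* mice, P = 0.00710, adjusted P = 0.45, limma), and its part in the results below was not tested. In the profile of genes outside Chr 17, 3 libraries stood apart (*b6/b6* 6, *b6/b6* 12 and *cast/cast* 6, with r under 0.92 to the median library). Differences between groups of mice that rest on them are given with and without them. Shares and correlations were not repeated without these 3 libraries. The mice of each genotype fell into a run of low and a run of high study numbers, a label that may follow the order of testing. Of the *b6/b6* mice 5 had low and 7 had high numbers, and of the *cast/cast* mice 7 had low and 5 had high numbers.

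*Tnxb* (chr17:34670535-34719815, plus strand) was the most strongly varying of the tenascins. Its normalized count in *b6/b6* mice was 44.6 at the lowest, 133.0 at the median and 341.6 at the highest. The corresponding *cast/cast* values were 8.01, 25.7 and 199.4. The genotypes overlapped, since 8 *cast/cast* mice were below every *b6/b6* mouse and 3 *b6/b6* mice were above every *cast/cast* mouse. The highest *cast/cast* value came from *cast/cast* 6, a library that stood apart. The means were 147.2 ± 85.7 (SD, n = 12) in *b6/b6* mice against 48.2 ± 53.7 (SD, n = 12) in *cast/cast*, 3.06-fold lower in *cast/cast*, and the log2 fold change was -1.95 (SE 0.41) on the scale of log2(normalized count + 1). Without the 3 libraries that stood apart the ratio was 4.76 and the log2 fold change -2.39. Because the tissue is bulk hypothalamus, fewer cells of a type and less RNA per cell cannot be told apart here or below.

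*Ddr1* (chr17:35681567-35704139, minus strand) separated the genotypes completely. Its normalized count was between 396.5 and 708.5 in *b6/b6* mice, with a median of 493.4. In *cast/cast* mice it was between 1.08 and 41.0, with a median of 21.3. The lowest value was a single tag hit in *cast/cast* 1, below the detectable signal, and all other *cast/cast* mice had more than 3 hits. The means were 541.3 ± 102.2 and 22.8 ± 11.7 (SD, n = 12 each), 23.8-fold lower in *cast/cast*, with a log2 fold change of -4.77 (SE 0.32). The difference was 20.7-fold in the mice of low study numbers and 26.0-fold in those of high study numbers. In the annotation, the 5′ end of *Ddr1* shares 726 bases with the antisense gene *Gm4577*, away from the predicted tag. Of all 13998 genes, 0.336% did not overlap between the genotypes. As the contrast served to list *Ddr1*, nothing is read from this share.

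*Ddr2* (chr1:169972307-170088944, minus strand), the relative of *Ddr1* that binds fibrillar collagens, was scarce in both genotypes. Its normalized count was 5.43 to 58.7 in *b6/b6* mice and 7.56 to 71.2 in *cast/cast* mice, with medians of 15.6 and 15.8. The values of the genotypes overlapped almost fully, and the means of 20.7 ± 15.7 and 19.3 ± 16.8 (SD, n = 12 each) gave a log2 fold change of -0.06 (SE 0.33, adjusted P = 0.97, limma). The highest values were those of the 3 libraries that stood apart (*b6/b6* 6 at 43.9, *b6/b6* 12 at 58.7 and *cast/cast* 6 at 71.2). Without them the means were 14.61 and 14.63 and the log2 fold change was 0.06 (SE 0.24). *Ddr1* made up 96.2 ± 3.0% of the summed counts of both receptors in *b6/b6* mice against 54.0 ± 21.9% in *cast/cast* mice. The sum of both receptors was 409.1 to 730.5 in *b6/b6* mice against 17.2 to 91.4 in *cast/cast* mice, so the level of *Ddr2* in *cast/cast* mice did not reach that of *Ddr1* in any *b6/b6* mouse. SAGE takes 1 tag site per transcript, and these counts are not scaled for transcript length.

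**Figure D1:**
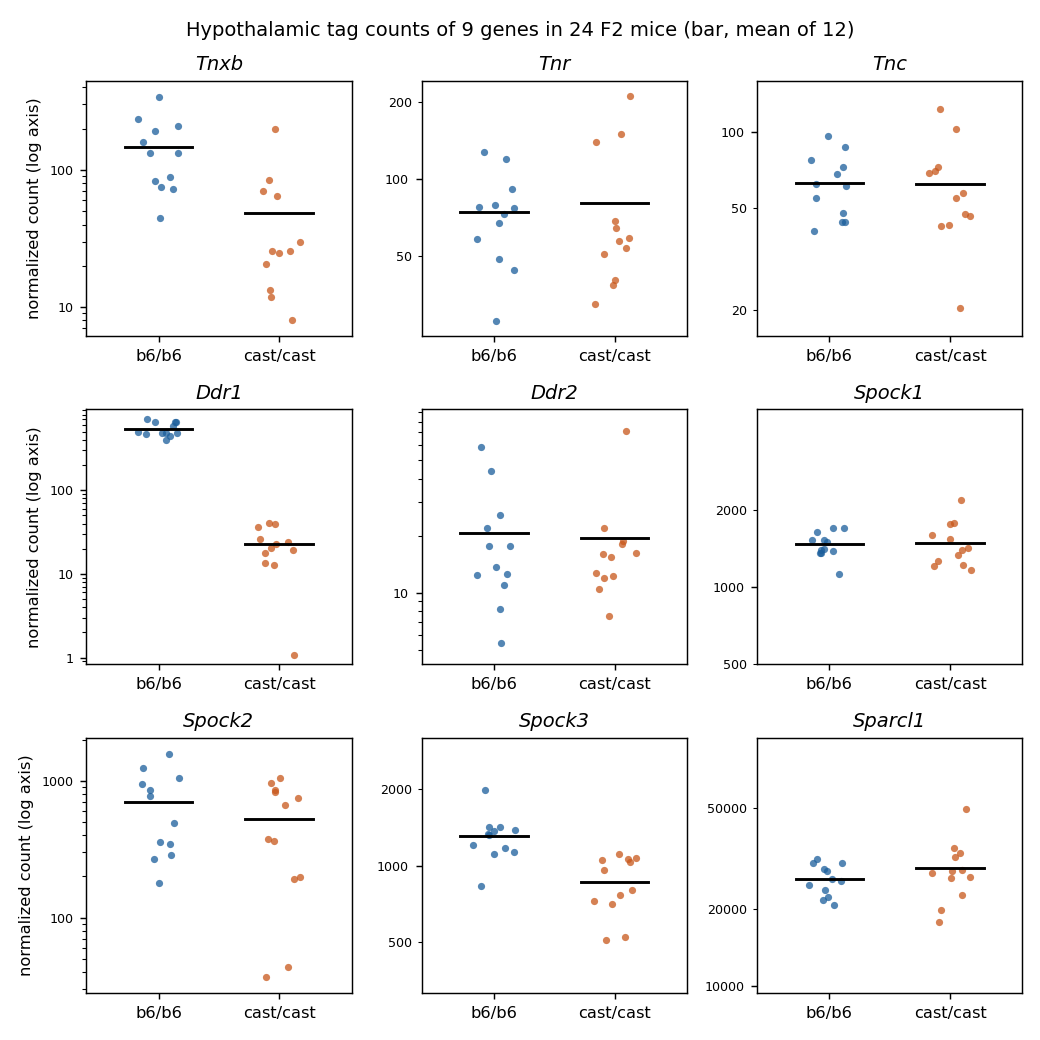
Each panel shows the normalized count of a gene (log axis) in each of 12 *b6/b6* and 12 *cast/cast* mice as points, with the mean as a bar. The genotypes are apart with no overlap for *Ddr1*, overlap in part for *Tnxb* and *Spock3*, and overlap widely for the other genes.

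*Tnr* and *Tnc*, the tenascins of neural tissue, were at similar levels in both genotypes. *Tnr* (chr1:159523769-159924922, plus strand) was 27.7 to 127.5 in *b6/b6* mice against 32.3 to 211.3 in *cast/cast* mice, with means of 74.1 ± 29.1 and 80.2 ± 55.7. Its log2 fold change was -0.03 (SE 0.28, adjusted P = 0.98, limma). The medians, 74.7 and 57.8, lay in the opposite order to the means, because 3 *cast/cast* mice were above every *b6/b6* mouse. The highest of them was *cast/cast* 6, which stood apart. Without the libraries that stood apart the *Tnr* means were 75.4 and 68.3, in the order of the medians, and the log2 fold change was -0.20 (SE 0.27). *Tnc* (chr4:63959785-64047015, minus strand) was 40.7 to 95.7 in *b6/b6* mice against 20.3 to 122.7 in *cast/cast* mice, with means of 63.1 ± 17.8 and 62.4 ± 27.8 and a log2 fold change of -0.09 (SE 0.22, adjusted P = 0.91). In *b6/b6* mice *Tnxb* thus supplied 48.8 ± 14.7% of the summed tenascin counts, *Tnr* 27.0 ± 9.66% and *Tnc* 24.2 ± 9.16%. For *cast/cast* mice these shares were 20.8 ± 11.2%, 40.9 ± 13.3% and 38.3 ± 18.1%. The predicted *Tnr* tag lies past the end of its transcript as the table places it. Which tags the *Tnr* count and these shares rest on is therefore not known.

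*Spock3* (chr8:62951232-63357096, plus strand), testican-3, was lower in *cast/cast* mice, and it was the single gene of the 7 outside Chr 17 that passed the thresholds of the study, a ratio of mean counts of 1.5 or more with P of 0.01 or less before adjustment. Its normalized count was 834.8 to 1972.9 in *b6/b6* mice, with a median of 1325.2, and 509.2 to 1112.0 in *cast/cast* mice, with a median of 880.1. Of the 12 *b6/b6* mice, 10 were above every *cast/cast* mouse, and 6 *cast/cast* mice were below every *b6/b6* mouse. The means were 1305 ± 270 and 861 ± 217 (SD, n = 12 each), a ratio of 1.52, and the log2 fold change was -0.62 (SE 0.15, P = 0.000271, adjusted P = 0.0485, limma over all genes). Of the 12644 genes placed outside Chr 17, 0.688% were called, 0.459% were called lower in *cast/cast* and 0.0237% had an adjusted P of 0.05 or less, and the 7 genes were listed with earlier results of these data known. The ratio stood close to the threshold. Without the 3 libraries that stood apart it was 1.38, with a log2 fold change of -0.48 (P = 0.00167, adjusted P = 0.22), and the gene was no longer called. It was 1.72 in mice of low study numbers (P = 0.00535, adjusted P = 0.28, log2 fold change -0.81) and 1.34 in mice of high study numbers (P = 0.0295, adjusted P = 0.89, log2 fold change -0.42). The shares of genes outside Chr 17 called lower in *cast/cast* were 0.111% without those libraries, 1.23% in mice of low and 0.247% in mice of high study numbers. The summed counts of 8 neuronal markers were 39717 to 60958 in *b6/b6* mice against 39057 to 60782 in *cast/cast* mice, and none of these 8 genes was called.

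*Spock1* (chr13:57421195-57908332, minus strand), testican-1, was the most abundant and the least variable of the testicans. Its normalized count was 1122 to 1710 in *b6/b6* mice against 1171 to 2205 in *cast/cast* mice, with means of 1472 ± 168 and 1494 ± 306 (SD, n = 12 each). The log2 fold change was 0.01 (SE 0.11, adjusted P = 0.99, limma). *Spock2* (chr10:60106257-60133913, plus strand), testican-2, varied far more. It was 179.9 to 1586 in *b6/b6* mice against 36.6 to 1054 in *cast/cast* mice, with means of 699 ± 448 and 529 ± 369 (SD, n = 12 each) and a log2 fold change of -0.70 (SE 0.51, adjusted P = 0.69). Its coefficient of variation (CV) was 64.1% in *b6/b6* mice against 69.7% in *cast/cast* mice, against 11.4% and 20.5% for *Spock1* and 20.7% and 25.2% for *Spock3*. Over all 24 mice the difference between the genotypes was within the spread between mice for *Spock1* and *Spock2*. In mice of low study numbers the *Spock2* mean was 1138 in *b6/b6* mice against 522 in *cast/cast* mice (log2 fold change -1.74, SE 0.67, P = 0.0215, adjusted P = 0.28, limma), and the gene was not called. In mice of high study numbers its log2 fold change was 0.08 (SE 0.59). Without the 3 libraries that stood apart its means were 556 and 559 and the log2 fold change was -0.37 (SE 0.55, adjusted P = 0.93).

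*Sparcl1* (chr5:104079109-104114088, minus strand) was by far the most abundant of the 9 genes, at a higher level than 99.8% of all genes in both genotypes. Its normalized count was 20736 to 31353 in *b6/b6* mice against 17791 to 49619 in *cast/cast* mice. The *cast/cast* mice spread beyond the *b6/b6* mice at both ends, with 4 above and 2 below all of them. The means were 26219 ± 3617 and 28983 ± 8247 (SD, n = 12 each), and the log2 fold change was 0.11 (SE 0.14, adjusted P = 0.84, limma).

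**Figure D2:**
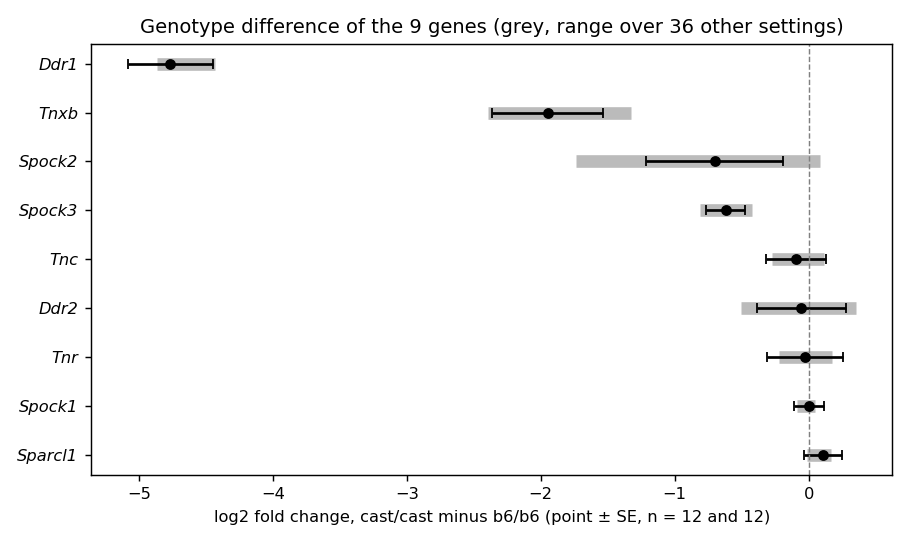
Points give the log2 fold change of each gene, *cast/cast* minus *b6/b6*, on the scale of log2(normalized count + 1), with the SE as whiskers (n = 12 and 12), and grey bars give the lowest to highest value over 36 other settings. *Ddr1* (-4.77), *Tnxb* (-1.95) and *Spock3* (-0.62) stayed below 0 in all 36, and the other 6 genes had values on both sides of 0.

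The genes next to *Tnxb* and *Ddr1* on Chr 17 did not share the size of their differences. As *Tnxb* and *Ddr1* were listed by those differences and the neighbours were not, nothing is read from this contrast. The start of a gene is taken here as its lower coordinate, whichever its strand. Of the 16 other tested genes with a start within 250 kb of that of *Tnxb*, 2 were called lower in *cast/cast* mice and none higher, and their log2 fold changes ran from -1.04 to 0.56. The called genes were *Agpat1*, an acyltransferase of phospholipid synthesis (342.3 ± 63.0 in *b6/b6* mice against 196.9 ± 79.1 in *cast/cast* mice, log2 fold change -0.90, SE 0.21, adjusted P = 0.032, limma), and *Zbtb12*, a zinc finger gene (67.0 ± 24.4 and 40.8 ± 21.5, log2 fold change -0.81, SE 0.28, adjusted P = 0.45). *Atf6b*, the nearest of the 16 by start, was at 28.2 ± 30.2 and 14.5 ± 7.08, and *Fkbpl*, the next, was at 117.4 ± 46.4 and 126.3 ± 34.5, and neither was called. *Ppt2*, a lysosomal thioesterase, had the lowest log2 fold change there (-1.04, SE 0.43) and was not called (P = 0.0216, adjusted P = 0.57). On Chr 17 as a whole, 16.1% of 633 genes were called.

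Around *Ddr1* there were 14 other tested genes, with log2 fold changes from -0.97 to 1.23. *Cchcr1* alone was called, and it was higher in *cast/cast* mice, at 3.97 ± 2.79 in *b6/b6* mice against 9.74 ± 4.31 in *cast/cast* mice (log2 fold change 1.23, SE 0.38, adjusted P = 0.29, limma), which is near the detectable signal. *Gtf2h4* and *Vars2*, the nearest by start, had log2 fold changes of 0.11 (SE 0.53) and -0.27 (SE 0.24). *Tubb5*, a beta-tubulin gene and the most abundant in this window, was at 20730 ± 6314 and 26841 ± 9935 (log2 fold change 0.31, SE 0.22). Of these 30 neighbours none had genotypes without overlap.

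**Figure D3:**
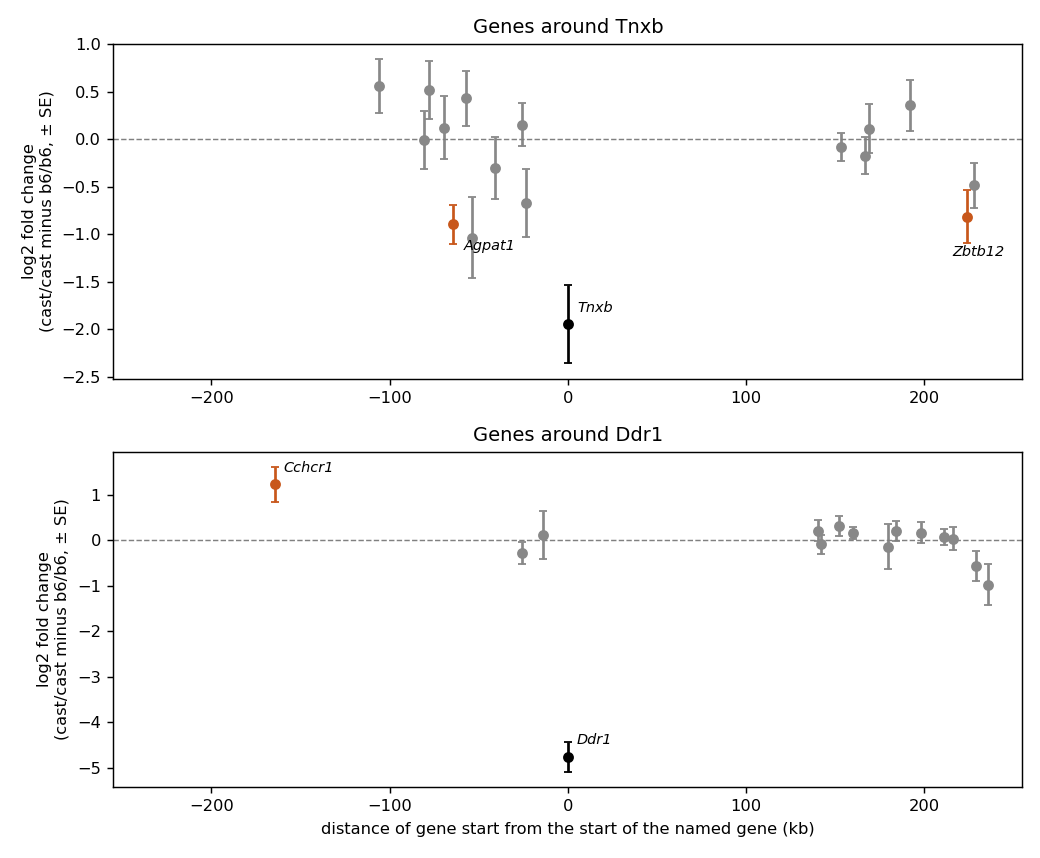
The log2 fold change (*cast/cast* minus *b6/b6*, with the SE as whiskers, n = 12 and 12) of each tested gene is plotted against the distance in kb of its start from that of *Tnxb* (top) or *Ddr1* (bottom). *Tnxb* and *Ddr1* are black, called neighbours are orange and named, and all neighbours lie between -1.04 and 1.23. Starts are lower coordinates, whichever the strand.

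Other genes of the brain matrix were followed in 6 lists, with 67 of 74 genes tested. None of the 67 was called in either direction with limma, 7 had an unadjusted P under 0.05 and none an adjusted P of at most 0.05. Of all 13998 genes 1.49% were called. Only 3 of the 67 lie on Chr 17, and 0.688% of genes outside Chr 17 were called, so few or no calls would be usual for 67 genes. With DESeq2 on tag hits, *Timp4*, an inhibitor of matrix metalloproteinases, was the only list gene called (113.6 and 54.2, P = 0.00556, adjusted P = 0.21), and with edgeR none was, where these tools called 2.82% and 2.79% of all genes. The median log2 fold change of the 67 genes was -0.06 beside -0.02 over all genes. Among 19 collagens the median was 0.03, with 11 above and 8 below 0. *Col11a2*, on Chr 17, had the lowest P of these (10.0 ± 3.49 in *b6/b6* mice against 6.24 ± 3.69 in *cast/cast* mice, log2 fold change -0.78, P = 0.0216), followed by *Col6a1* (177.4 ± 124.1 and 293.0 ± 239.6, log2 fold change 0.67, P = 0.0507).

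Among 10 lecticans, link proteins and partners of the perineuronal net the median log2 fold change was -0.04. *Ptprz1*, a receptor phosphatase that binds tenascins, had the lowest P of all list genes, with 689.0 ± 276.2 in *b6/b6* mice against 492.8 ± 81.6 in *cast/cast* mice (log2 fold change -0.41, SE 0.17, P = 0.0200, adjusted P = 0.56, limma). *Hapln2*, a link protein of the nodes of Ranvier, was at 59.0 ± 28.3 and 76.1 ± 30.4 (log2 fold change 0.45, P = 0.10). Among 9 receptors of tenascins the median was -0.02, and *Cntn1*, contactin-1, a partner of tenascin-R, was at 2296 ± 412 and 1899 ± 333 (log2 fold change -0.27, P = 0.0313, adjusted P = 0.59). The 4 SPARC relatives had a median of -0.22, with *Smoc2*, on Chr 17, at 35.3 ± 9.87 and 25.8 ± 9.25 (P = 0.0300) and *Smoc1* at 31.7 ± 28.8 and 17.0 ± 11.4 (P = 0.0459). Among 10 signalling partners of the discoidin receptors the median was -0.11, and the adaptors *Nck2* (93.1 ± 35.3 and 67.5 ± 18.3, P = 0.0401) and *Crk* (1282 ± 285 and 1054 ± 175, P = 0.0425) had the lowest P. Among 15 matrix proteases and inhibitors the median was -0.16, with 13 below and 2 above 0, and *Mmp2*, a gelatinase, was at 24.7 ± 9.40 and 18.1 ± 7.85 (P = 0.0692).

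Within the *b6/b6* genotype, *Tnxb* and *Spock2* differed between mice of low and high study numbers, in opposite directions. *Tnxb* was 44.6 to 88.4 in the 5 *b6/b6* mice numbered 27 to 109 and 132.2 to 341.6 in the 7 numbered 251 to 364. *Spock2* was 863.5 to 1586 in the former and 179.9 to 769.9 in the latter. Neither gene overlapped between the runs, which were set after seeing the data. The log2 difference, high minus low, was 1.41 for *Tnxb* and -1.66 for *Spock2*, each with an exact permutation P of 0.00253 (two-sided, adjusted P = 0.0227 over 18 tests). *b6/b6* 6 and *b6/b6* 12, which stood apart, are 2 of the 5 mice of the low run. Without them, with 3 against 7 mice, the runs still did not overlap for either gene and the differences were 1.27 and -1.44, each with an exact permutation P of 0.0167, the smallest that 3 against 7 mice allow (adjusted P = 0.15 over 18 tests). Of all genes, 3.91% did not overlap between these runs of *b6/b6* mice. Over all *b6/b6* mice the correlation with study number was r = 0.87 for *Tnxb* and r = -0.89 for *Spock2* (adjusted permutation P = 0.00378 each). By rank neither passed, with rho = 0.75 and -0.79 (adjusted permutation P = 0.0649 and 0.0635). Within the high run r was 0.15 and -0.55 (rho = -0.18 and -0.14, adjusted exact permutation P = 0.88 and 0.48 by r). *Ddr1* was 396.5 to 583.1 in the low and 485.0 to 708.5 in the high run (exact permutation P = 0.0404, adjusted P = 0.24), and the other 6 genes had adjusted P of 0.57 and above.

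In *cast/cast* mice the runs overlapped for all 9 genes. *Tnxb* was 8.01 to 199.4 in the 7 mice numbered 15 to 121 and 20.8 to 83.9 in the 5 numbered 197 to 270, and *Spock2* was 36.6 to 1054 and 43.8 to 865.4. Among those 7 mice of low numbers *Tnxb* fell with study number by rank (rho = -0.93, adjusted exact permutation P = 0.0405 over 12 relations). By r the relation did not pass (r = -0.715, adjusted exact permutation P = 0.21). These mice include *cast/cast* 6, and the relation was not computed without it. Whether the slope on study number differed between genotypes was tested over all genes, and the adjusted P was 0.53 for *Tnxb* and 0.43 for *Spock2* (limma), so a difference between the genotypes in this respect was not detected. Genotype and study number were unevenly mixed, with median numbers of 269.5 in *b6/b6* mice against 120.5 in *cast/cast* mice. Within the low run the *Tnxb* means were 72.8 ± 17.0 (SD, n = 5) in *b6/b6* mice against 49.8 ± 68.7 (n = 7) in *cast/cast* mice, which is 1.46-fold, with medians of 75.3 and 25.5. This ratio rested on *cast/cast* 6 (199.4), one of the libraries that stood apart. Without that mouse the *cast/cast* mean was 24.9 ± 20.9 (n = 6) and the ratio was 2.92, and without *b6/b6* 6 and *b6/b6* 12 as well it was 3.16. Within the high run they were 200.4 ± 73.3 (n = 7) and 45.9 ± 29.0 (n = 5), a ratio of 4.37. With study number as a covariate the log2 fold change of *Tnxb* was -1.73 and that of *Ddr1* was -4.70.

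**Figure D4:**
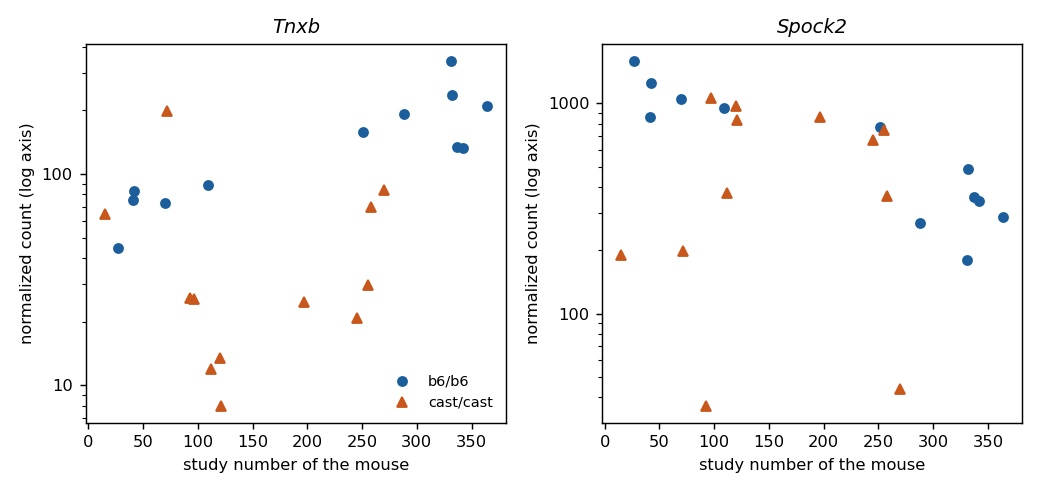
The normalized counts (log axis) of *Tnxb* and *Spock2* are plotted against the study number of each mouse, with *b6/b6* mice as blue circles and *cast/cast* mice as orange triangles. In *b6/b6* mice *Tnxb* is at or below 88.4 up to number 109 and at or above 132.2 from number 251, and *Spock2* is at or above 863.5 and at or below 769.9 in the same mice.

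*Tnxb* and *Spock2* were also related to the main axis of variation between libraries. The first principal component of genes outside Chr 17, with its sign set to rise with *Tnxb* over all libraries, held 36.9% of the variance. Its correlation with *Tnxb* was r = 0.87 (rho = 0.79, adjusted permutation P = 0.00186 and 0.0123) in *b6/b6* mice against r = 0.91 (rho = 0.87, adjusted permutation P = 0.00036 and 0.00351) in *cast/cast* mice. *Spock2* ran the other way, with r = -0.94 (rho = -0.87, adjusted permutation P = 0.00036 and 0.00351) in *b6/b6* mice against r = -0.56 (rho = -0.79, adjusted permutation P = 0.10 and 0.0123) in *cast/cast* mice. Without the 2 mice farthest from the median of the component, r was 0.74 and 0.87 for *Tnxb* and -0.90 and -0.59 for *Spock2*. In *cast/cast* mice *Tnr* (r = 0.77, rho = 0.24) and *Sparcl1* (r = -0.70, rho = -0.57) also passed by r (adjusted permutation P = 0.0303 each) and not by rho (0.49 and 0.14), and without the 2 farthest mice r was 0.48 and -0.38. *Ddr1* passed by rho and not by r, in opposite directions, with r = 0.65 (rho = 0.83, adjusted permutation P = 0.0603 and 0.00978) in *b6/b6* mice against r = -0.24 (rho = -0.72, adjusted permutation P = 0.52 and 0.0325) in *cast/cast* mice, and r was 0.57 and -0.37 without the 2 farthest mice. Of the 18 relations 5 passed an adjusted P of 0.05 by r and 6 by rho. The share of all genes that would pass was not computed, so nothing particular to these genes is read from the counts. None of the genes described here was among the 10966 genes of the component. With the first 2 components as covariates the log2 fold change was -2.15 for *Tnxb*, -4.64 for *Ddr1* and -0.50 for *Spock3*. What the component stands for was not tested.

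Between pairs of the 9 genes, 3 of 72 relations within a genotype had an adjusted P of at most 0.05. In *b6/b6* mice *Tnxb* and *Spock2* were inversely related (r = -0.88, rho = -0.85, adjusted permutation P = 0.00744 and 0.0371, n = 12), but these mice fell into the runs of study numbers described above. Within the run of high numbers r was -0.51 (rho = -0.39, exact permutation P = 0.24 and 0.40, n = 7), so the relation was not shown within a run, and the run of low numbers held too few mice. In *cast/cast* mice *Ddr1*, at its low level, was directly related to *Spock2* (r = 0.82, rho = 0.92, adjusted permutation P = 0.00504 and 0.00576). It was r = 0.77 without the 2 mice farthest from the median *Ddr1* value, and r = 0.93 (rho = 0.96, n = 7) within the run of low study numbers. Those 7 mice are among the 12 in which this pair had passed, so the run is no separate test and no P is given for it. In *b6/b6* mice the same pair had r = -0.63 (rho = -0.68, adjusted permutation P = 0.16 and 0.19).

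*Tnr* and *Sparcl1* were inversely related in *cast/cast* mice (r = -0.85, adjusted permutation P = 0.00744), although not by rank (rho = -0.66, adjusted permutation P = 0.20). Within the run of low numbers r was -0.96 (rho = -0.89, n = 7), and over all *cast/cast* mice without the 2 farthest it was -0.77. Those 7 mice are among the 12 in which this pair had passed, so no P is given for the run. They include *cast/cast* 6, which stood apart and had the highest *Tnr* (211.3) and lowest *Sparcl1* (17791) of its genotype. The relation within the run was not computed without it. In *b6/b6* mice the pair had r = 0.04. *Tnxb* and *Ddr1*, the neighbours on Chr 17, had r = 0.73 in *b6/b6* mice (rho = 0.74, adjusted permutation P = 0.13 and 0.19) and r = 0.80 within the run of high numbers (rho = 0.68, exact permutation P = 0.0306 and 0.11, adjusted P = 0.12 and 0.33, n = 7). The *cast/cast* mice gave r = -0.18. All pairs share the size factor of their library.

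**Figure D5:**
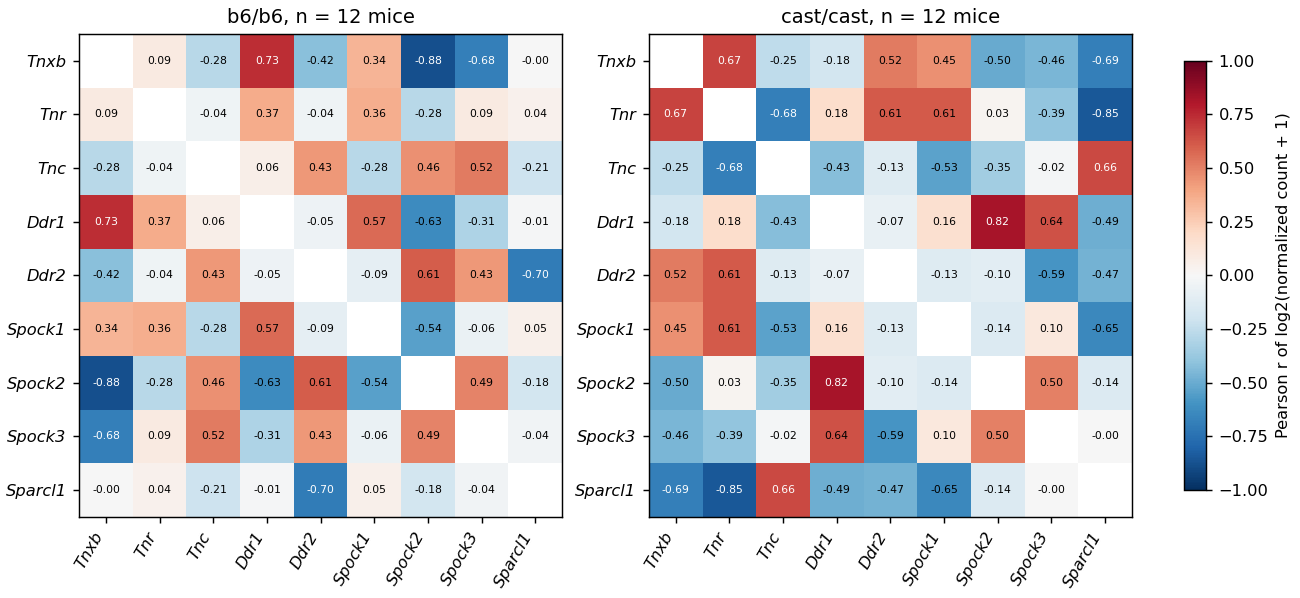
Each cell gives Pearson r between a pair of genes on the scale of log2(normalized count + 1) over the 12 mice of a genotype, from blue (-1) to red (1). The pairs past an adjusted P of 0.05 are *Tnxb* with *Spock2* in *b6/b6* mice (-0.88) and, in *cast/cast* mice, *Ddr1* with *Spock2* (0.82) and *Tnr* with *Sparcl1* (-0.85).

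Relations with food intake were examined within each genotype, since intake had been used to choose the mice. Of 36 relations with C/P kcal or total kcal none passed after adjustment, and by r 4 had an unadjusted permutation P under 0.05, all with total kcal in *cast/cast* mice. The closest was *Sparcl1*, with r = 0.74 and rho = 0.82 (permutation P = 0.00546 and 0.00202, adjusted P = 0.20 and 0.073, n = 12), and r = 0.66 without the 2 mice of most extreme intake. The other 3 fell to between r = -0.25 and r = 0.17 without those mice, namely *Spock1* (-0.64 to -0.12), *Tnr* (-0.60 to -0.25) and *Tnc* (0.58 to 0.17). *Tnxb* and total kcal in *b6/b6* mice had r = 0.50 (permutation P = 0.10) and rho = 0.60 (permutation P = 0.0435, adjusted P = 0.52), and r = 0.49 without the 2 mice of most extreme intake. The 4 relations of *Ddr1* had unadjusted permutation P of 0.48 and above by r and by rho.

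Each gene was also set beside the summed markers of a cell type known to make it, over 12 mice of each genotype. None of 18 relations had an adjusted P of at most 0.05. *Tnxb* had r = 0.09 (rho = 0.15, adjusted permutation P = 0.94 and 0.73) in *b6/b6* mice against r = 0.18 (rho = -0.18, adjusted permutation P = 0.81 and 0.73) in *cast/cast* mice with 14 of 15 meningeal fibroblast markers. Without the 2 farthest mice r was 0.09 in *b6/b6* mice against -0.66 in *cast/cast* mice. The sum of these markers was 877 to 4277 in *b6/b6* mice against 674 to 7218 in *cast/cast* mice, with the highest value in *cast/cast* 6, and none of them was called. *Ddr2* had r = 0.70 with them in *cast/cast* mice (rho = 0.46, adjusted permutation P = 0.28 and 0.59), which was 0.30 without the 2 farthest mice. *Ddr1* had r = -0.60 with 10 oligodendrocyte markers in *b6/b6* mice (rho = -0.65, adjusted permutation P = 0.36 and 0.39) and r = -0.07 in *cast/cast* mice. The sum of the oligodendrocyte markers was 14732 to 49466 in *b6/b6* mice against 16107 to 38867 in *cast/cast* mice, none of the 10 was called, and their median log2 fold change was -0.14, beside -4.77 for *Ddr1*.

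The genes whose levels were most like those of *Tnxb* over the 12 *b6/b6* mice, among 11993 genes, were *Nfatc4* (r = 0.98), *A330048O09Rik* (0.95), *Irf9* (0.95), *Brd3* (0.94) and *P2rx6* (0.94). None of them lies on Chr 17. Over the *cast/cast* mice their r with *Tnxb* was 0.81, 0.52, 0.58, 0.89 and 0.90. For *Ddr1* they were *Lpo* (0.92), *Sult1a1* (0.90), *LOC433944* (0.88), *Poc1b* (0.87) and *Imp4* (0.87), and over the *cast/cast* mice their r with *Ddr1* was between -0.29 and -0.07. These values describe likeness between mice of these libraries, and they were chosen as the highest of many.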

How the data were processed

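SAGE-Seq of the hypothalamus was analysed for 12 *b6/b6* and 12 *cast/cast* F2 mice, grouped by the genotype in the deposited labels. The signal values deposited by the authors are tag hits per gene after DESeq normalization, that is, each library was scaled by its size factor. Alignment used an adapted SOLiD SAGE Analysis Software, with RefSeq transcripts and GRCm38 as references. The columns of the authors' own comparison (P-value, adjusted P-value, fold change ratio and log2 fold change, as deposited) were not used. All values in the table were whole multiples of a step per library, which gave back whole tag hits. The table has 19529 rows for 13998 genes, repeated rows being equal, and its lowest mean normalized count was 6.03, so scarcer genes were not analysed here. Positions are those of the table (GRCm38/mm10). Tags carry no molecular identifiers, so the floor of 3 tag hits covers counting error only. No pair of libraries within a genotype differed by as little as sampling noise (132 pairs, lowest chi-square per degree of freedom 14.6).

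Genes with a mean of at least 5 were fitted with limma 3.58.1 on log2(normalized count + 1) in R 4.3.3 (lmFit, then eBayes, trend on), with no covariate, and P was adjusted by Benjamini-Hochberg over all genes. A call needed P of 0.01 or less before adjustment and group means that differed 1.5-fold or more. Fold changes on this scale understate changes of scarce genes. Correlations were tested with 100000 permutations (two-sided), and groups under 10 mice by exact permutation. Scripts were tested on simulated data. The members, gene lists and tests were chosen with earlier results of these data known. Genes named are the 9 members, the 10 list genes of lowest P, the 5 genes most like *Tnxb* or *Ddr1* with a mean of at least 20, the tested genes within 250 kb, and marker genes. *Timp4* was named after its values were seen. Alternatives were a pseudocount of 0.5 or 5, no minimum mean or 20, rescaling to the same total, edgeR 4.0.16 and DESeq2 1.42.0 on tag hits, study number as a covariate, and each mouse left out. The principal component, the runs of study numbers and the 3 libraries that stood apart were examined after seeing the data. Separate animals are the replicates. Python 3.11.15, scipy 1.17.1 and matplotlib 3.10.9 were used.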

Additional observations from a re-analysis of the deposited data

How the results depend on the processing

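Over 36 other settings the log2 fold change was from -4.87 to -4.43 for *Ddr1* and from -2.39 to -1.33 for *Tnxb*, smallest in size in mice of low study numbers, where the ratio of 1.46 became 2.92 without *cast/cast* replicate 6. *Spock3* was below 0 in all 36 and called in 29 of them. A call used the ratio of the plain group means, which stayed at 1.516 with other pseudocounts, minimum means, tools or covariates. In those settings only P could have undone the call. With 2 principal components as covariates the log2 fold change was -0.50, and the call still rested on that ratio. With no minimum mean the *Spock3* values were those of the main fit, so that setting is no separate test. The *Spock3* ratio was under the threshold without *b6/b6* replicate 12 (1.446) or without *cast/cast* replicate 1 (1.464), 2 (1.492), 5 (1.495) or 6 (1.462). It was 1.38 without the 3 libraries that stood apart and 1.34 in mice of high study numbers. In all these settings *Spock3* was not called, so the count among the 7 listed genes outside Chr 17 was 0 in place of 1. Its adjusted P, 0.0485 with limma, was 0.0675 with edgeR, 0.00899 with DESeq2, 0.0601 after rescaling to the same total, 0.0600 with study number as a covariate and 0.0653 with 2 principal components, and from 0.0166 to 0.0977 with a mouse left out. Leaving out single mice gave counts of 0 to 1 for the listed genes outside Chr 17, and 0 to 1 for the matrix lists (*Col11a2* without *cast/cast* replicate 6). The matrix lists had 1 called gene with DESeq2 (*Timp4*) and 2 in mice of low study numbers (*Col9a3* and *Hapln2*), in place of 0.

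Small differences that were not called changed sign. *Tnr* was at 0.10 with edgeR, 0.11 with DESeq2, 0.086 with 2 principal components and 0.17 in mice of low study numbers. *Tnc* was at 0.032 and *Ddr2* at 0.063 without the libraries that stood apart, and at 0.11 and 0.25 in mice of high study numbers, where *Spock1* was at -0.033 and *Spock2* at 0.082. With 2 principal components *Ddr2* was at 0.35 and *Sparcl1* at -0.014, and after rescaling to the same total, which moved the median of all genes from -0.02 to -0.11, *Spock1* was at -0.087. Leaving out single mice gave ranges of -0.17 to 0.069 for *Tnr*, -0.19 to 0.036 for *Tnc*, -0.24 to 0.10 for *Ddr2* and -0.048 to 0.035 for *Spock1*. Without the 2 mice farthest from the median of the first gene, 0 of 72 pair relations passed in place of 3, with 10 mice in each, and 1 of 18 marker relations passed in place of 0 (*Spock1* with neuronal markers in *cast/cast* mice, r = 0.84, adjusted permutation P = 0.0277). After rescaling, 4 pair relations passed, *Tnxb* with *Sparcl1* in *cast/cast* mice being added (r = -0.79, adjusted permutation P = 0.0396). Over all genes, calls numbered 208 with limma, 391 with edgeR and 395 with DESeq2, and adjusted P of 0.05 or less 80, 75 and 125. No paired analysis was possible because mice were numbered in accession order, which pairs no mice. The cause of these changes was not tested. At 3 tag hits the floor was near the lowest *Ddr1* and *Cchcr1* values, so their low levels are the least precise.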
